A study of Arabidopsis thaliana with 27 samples.

Results

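Protease inhibitors are small proteins that plants accumulate in attacked leaves, where they block the digestive proteases of a chewing insect. In Arabidopsis they include Kunitz-type inhibitors, a mustard-family group of small trypsin inhibitors and the potato inhibitor I family, and most act on serine proteases such as trypsin and chymotrypsin. Their transcription after wounding is classically placed under jasmonate, the wound hormone, and larval oral secretions (OS) entering the wound can alter that response. Here, 10 protease inhibitor genes chosen by their AGI codes were followed: 5 Kunitz genes, the 3 trypsin inhibitor genes ATTI1 to ATTI3, and 2 potato inhibitor I genes, UPI and AT2G38870. The expression table of 18899 genes held 9 of the 10, and AT1G72290 was not analysed here. The rule uses no measured value, but the members were chosen with earlier results of these data known. By the study's methods the table kept genes with 1 CPM in at least 1 sample. KTI1 and UPI had no reads in control and DR4 stayed below that level there before batch correction, so these 3 entered through treated libraries, and counts over the 9 measured genes are a description only.

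The samples were 27 RNA-seq libraries from leaves of 5-week-old wild-type Col-0 plants, with 4 replicates a group. The 24 h groups were wounded leaves with OS of *Pieris brassicae* (Pb OS), a crucifer specialist, wounded leaves with OS of *Spodoptera littoralis* (Sl OS), a generalist, and wounded leaves with water (W). The same treatments were sampled at 3 h, where W had 3 replicates after the authors left out 1 library as an outlier, and untouched leaves collected with the 3 h samples were the only control. Leaves were pierced 4 times (holes of 1 mm) and each hole received 2 µl, on 3 leaves of each of 2 plants, from which discs of 1 cm at the wound were taken. No unwounded leaves were taken at 24 h. The OS had been drawn from larvae by pipette and stored frozen, so no larva fed on these leaves.

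Values are CPM, read counts scaled to a library of 1 M reads, after the batch correction made by the authors, and error is the SD over replicates. Whole reads could be recovered for every gene, giving 22.48 to 31.34 M reads on genes per library. A single read was worth 0.0289 to 0.0422 CPM, and a library with 0 reads stood near 0.0347 CPM because of the added prior count. Changes were tested with limma over all genes with Benjamini-Hochberg adjustment. The call against control required a log2 change above 1 besides an adjusted p below 0.05, and that between treatments or times rested on the adjusted p alone. The material is bulk tissue, in which fewer cells of a type and less RNA per cell cannot be told apart. Leaf mesophyll markers (4 of 4 genes in the table) summed to 14144 to 25137 CPM with Pb OS and 7895 to 22934 CPM with Sl OS at 3 h, to 32397 to 41644 CPM with W at 3 h and to 41776 to 58128 CPM in control, with 31330 to 52570 CPM over the 24 h libraries. The xylem marker XCP1 had 20.4 to 26.9 CPM with Pb OS and 25.4 to 38.2 CPM with Sl OS at 24 h, against 5.66 to 18.8 CPM with W and 6.94 to 10.3 CPM in control. The 2 root markers in the table summed to 1.12 to 2.31 CPM with Sl OS at 24 h and 1.08 to 6.41 CPM with Pb OS at 3 h, and to at most 0.199 CPM in control. The 2 guard cell markers summed to 33.7 to 75.9 CPM with Pb OS and 48.8 to 67.2 CPM with Sl OS at 3 h, against 26.2 to 32.05 CPM in control. Over all groups the epidermis markers summed to 131 to 367 CPM and the phloem marker to 190 to 378 CPM. The part of these marker levels in the results was not tested.

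**Figure D1:**
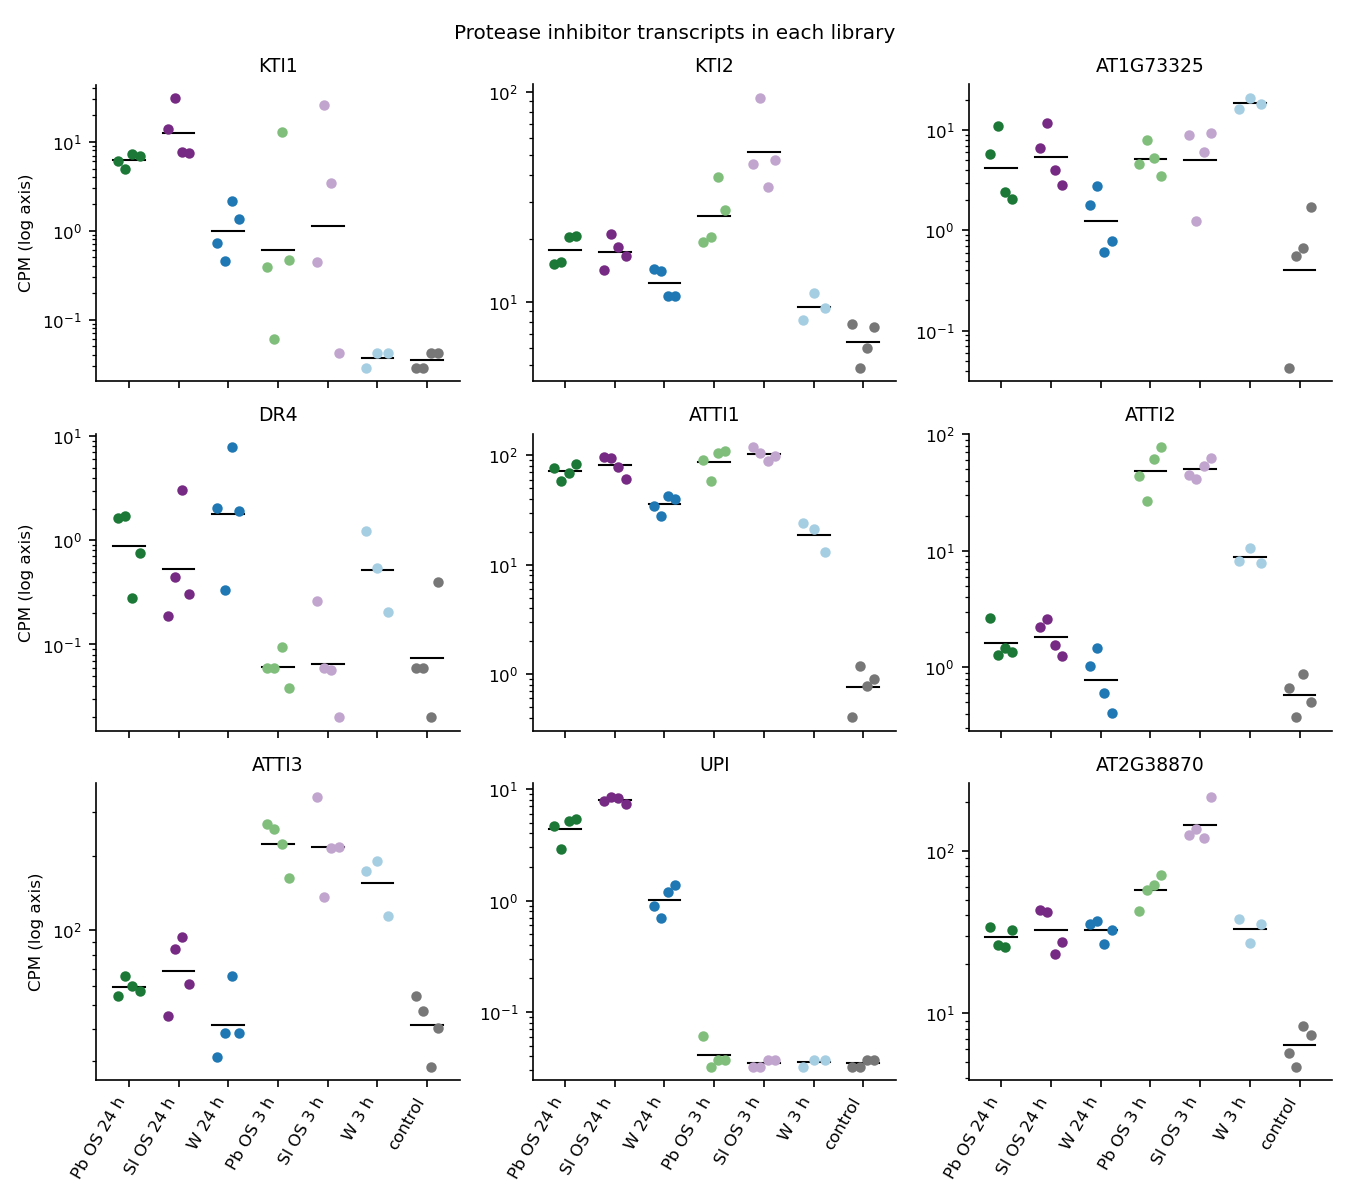
CPM of the 9 measured inhibitor genes in each library, on log axes, with a point per library (n = 4 a group, 3 for W at 3 h) and a bar at the mean of the log2 values. ATTI1 stayed high at both times, ATTI2 and ATTI3 were high at 3 h, and UPI had 0 or 1 read per library outside the 24 h groups.

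At 24 h, 5 of the 9 measured genes were called above control after Pb OS, 7 after Sl OS and 4 after W, while 1.58%, 2.26% and 1.39% of all genes were called higher. At 3 h the counts were 7 with Pb OS, 7 with Sl OS and 5 with W, where 13.4%, 14.5% and 3.5% of all genes were called higher. No measured member was called lower in any treatment, where 0.212%, 0.487% and 0.159% of all genes were at 24 h and 14.5%, 16.2% and 0.323% at 3 h with Pb OS, Sl OS and W. The median log2 change of the 9 genes was 3.38, 2.85 and 2.36 with Pb OS, Sl OS and W at 24 h, and 3.16, 3.63 and 2.43 at 3 h, while that of all genes lay between -0.0018 and 0.011. Counting genes without reads in control at the bound described below, and leaving out those at the floor in both groups, the 3 h medians were 3.41, 4.07 and 2.77 over 8, 8 and 7 genes. ATTI1 and AT2G38870 were called higher in all 6 treatments, the only measured members that were. All 6 comparisons share the same control libraries. These were collected at 3 h, so at 24 h treatment and sampling time cannot be told apart against control.

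**Figure D2:**
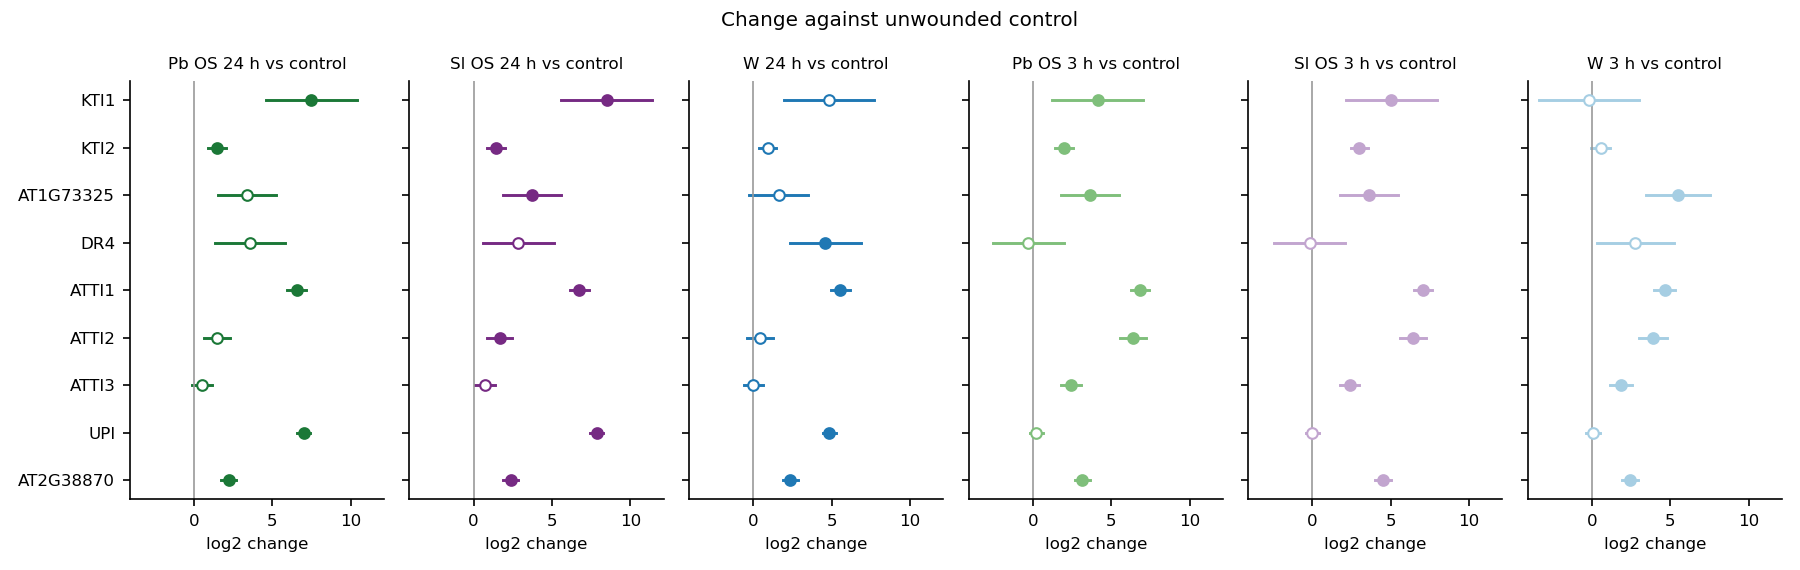
Log2 change of each inhibitor gene in the 6 treatments against unwounded control, with 95% confidence intervals before adjustment. Filled points passed the call and open points did not, and ATTI1 and AT2G38870 are filled in every panel.

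The trypsin inhibitor genes lie side by side on chromosome 2, and their transcripts followed different time courses. In the reference assembly TAIR10.1, ATTI1 (AT2G43510) spans chr2:18066960-18067860, ATTI2 (AT2G43520) chr2:18068425-18069416 and ATTI3 (AT2G43530) chr2:18070110-18070523, all on the plus strand, 564 and 693 bases apart. ATTI4 and ATTI6 follow within the same 6.69 kb. The longest exact run shared by the exons of ATTI1, ATTI2 or ATTI3 with another inhibitor gene was 23 bases, against reads of 150 bases.

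ATTI1, a trypsin inhibitor of the mustard family, rose in every treatment and stayed high at 24 h. It had 77.3, 57.7, 68.6 and 84.2 CPM with Pb OS at 24 h, 96.1, 95.2, 78.9 and 61.0 CPM with Sl OS, and 34.6, 28.1, 42.1 and 40.0 CPM with W. At 3 h it had 89.8, 57.7, 105 and 109 CPM with Pb OS, 118, 104, 88.4 and 99.6 CPM with Sl OS, and 23.9, 21.2 and 13.1 CPM with W, against 0.405, 1.199, 0.787 and 0.895 CPM in control. Every treated library was thus above every control library, and every OS library was above every W library of its hour. The log2 change against control was 6.54 ± 0.29 (SE) with Pb OS, 6.73 ± 0.29 with Sl OS and 5.55 ± 0.29 with W at 24 h, and 6.84 ± 0.29, 7.06 ± 0.29 and 4.64 ± 0.31 at 3 h, with limma adjusted p of at most 1.42e-08. Between 24 h and 3 h the OS groups differed by -0.30 (Pb OS, adjusted p 0.41) and -0.33 (Sl OS, adjusted p 0.36), with 95% intervals of -0.90 to 0.30 and -0.92 to 0.27 by limma.

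ATTI2, the next gene on the chromosome, was high at 3 h and had fallen by 24 h to within a few CPM of control. It had 2.67, 1.28, 1.46 and 1.35 CPM with Pb OS at 24 h, against 43.8, 26.8, 61.6 and 77.2 CPM at 3 h. With Sl OS it had 2.23, 2.58, 1.55 and 1.24 CPM at 24 h, against 44.6, 41.7, 53.7 and 62.8 CPM at 3 h. With W it had 1.03, 1.48, 0.605 and 0.409 CPM at 24 h, against 8.19, 10.6 and 7.87 CPM at 3 h, and control leaves had 0.667, 0.374, 0.885 and 0.507 CPM. The times did not overlap in any treatment. The log2 difference between 24 h and 3 h was -4.92 ± 0.39 with Pb OS (adjusted p 7.26e-08), -4.78 ± 0.39 with Sl OS (6.66e-08) and -3.44 ± 0.42 with W (4.32e-05) by limma. What remained at 24 h was called above control with Sl OS (log2 change 1.66 ± 0.39, adjusted p 0.018) and missed the call with Pb OS (1.48 ± 0.39, adjusted p 0.053). Without Sl OS replicate 2 at 24 h the Sl OS value was 1.44 (adjusted p 0.094 by limma), and control replicates 1 and 2 and Sl OS replicate 1 each ended the call too, at 1.67, 1.43 and 1.62. The Pb OS value passed without the replicate block (limma adjusted p 0.031) and without control replicate 3 (1.71, adjusted p 0.046).

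ATTI3 was already abundant in unwounded leaves and rose at 3 h in all 3 treatments. It had 54.4, 65.6, 59.7 and 57.1 CPM with Pb OS at 24 h, against 268, 255, 223 and 162 CPM at 3 h. With Sl OS it had 45.5, 84.2, 94.2 and 61.1 CPM at 24 h, against 344, 137, 214 and 217 CPM at 3 h, and with W 31.0, 38.6, 65.7 and 38.8 CPM at 24 h, against 174, 190 and 114 CPM at 3 h. Control leaves had 54.3, 47.3, 28.4 and 40.7 CPM, below every 3 h library. At 3 h the log2 change against control was 2.43 ± 0.30 with Pb OS (adjusted p 3.42e-06), 2.38 ± 0.30 with Sl OS (3.03e-06) and 1.86 ± 0.33 with W (0.0012) by limma. At 24 h it was 0.51, 0.72 and 0.01 with adjusted p of 0.49, 0.21 and 0.99, none past the call. These are corrected values: before the correction, libraries of replicates 3 and 4 held 2.55 times as much ATTI3 as those of replicates 1 and 2, and 1.31 and 1.69 times as much ATTI1 and ATTI2.

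**Figure D3:**
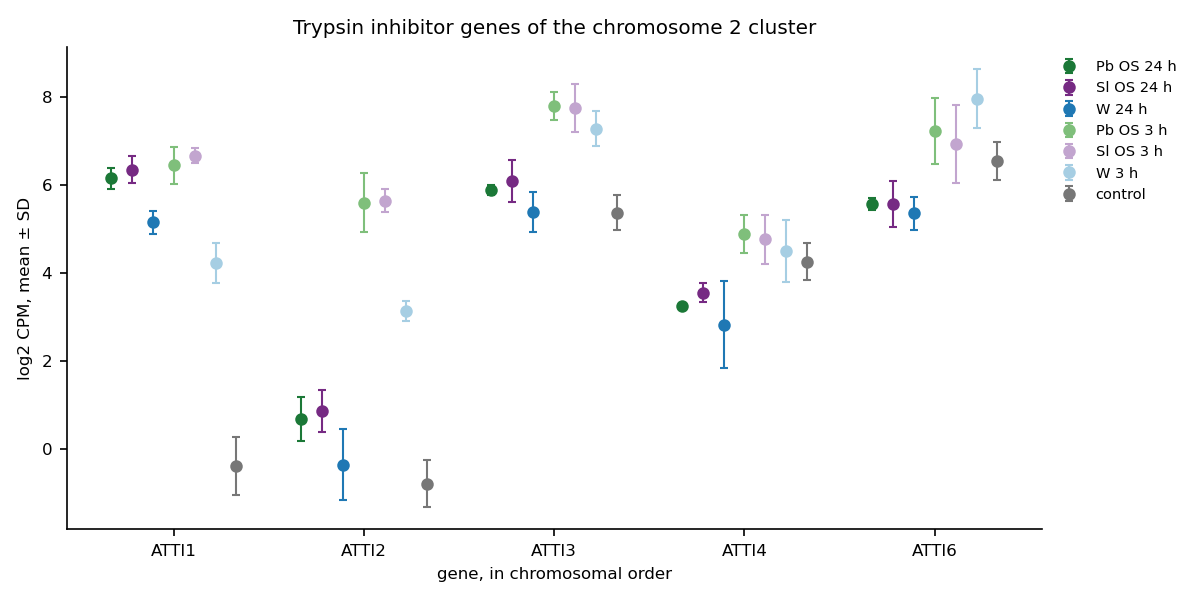
Mean log2 CPM with SD of the 5 trypsin inhibitor genes of the chromosome 2 cluster, in chromosomal order, for the 7 groups (n = 4, 3 for W at 3 h). ATTI1 is high with OS at both times, and ATTI2 falls at 24 h by -4.92 (Pb OS) and -4.78 (Sl OS).

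The 2 neighbours beyond ATTI3 were not called against control at 3 h. ATTI4 averaged 30.8 ± 8.9 CPM with Pb OS, 28.9 ± 12.2 with Sl OS and 24.6 ± 13.1 with W at 3 h, against 19.8 ± 6.1 in control. ATTI6 averaged 166 ± 86.6, 139 ± 71.9 and 271 ± 137 CPM in the same groups, against 96.9 ± 27.6 in control. Its 3 W libraries at 3 h, at 182 to 428 CPM, were all above the control libraries, at 62.5 to 126 CPM, with a log2 difference of 1.43 ± 0.45 (limma adjusted p 0.083). Both were lower at 24 h than at 3 h in all 3 treatments, by -1.63, -1.21 and -1.71 (ATTI4) and -1.66, -1.37 and -2.61 (ATTI6) with Pb OS, Sl OS and W.

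The 250 bases before the annotated start of ATTI1 and ATTI2 are given because these neighbours shared the early rise and not the late level, together with those of UPI, which had its reads at 24 h, and of KTI2, which holds the most copies of a searched motif. They were chosen after the values were seen. The sequence is RefSeq TAIR10.1, written 5′ to 3′ on the gene's strand, and capitals mark TTGAC on either strand (GTCAA on the other), the core of the W box bound by WRKY factors.
ATTI1, chr2:18066710-18066959, plus strand: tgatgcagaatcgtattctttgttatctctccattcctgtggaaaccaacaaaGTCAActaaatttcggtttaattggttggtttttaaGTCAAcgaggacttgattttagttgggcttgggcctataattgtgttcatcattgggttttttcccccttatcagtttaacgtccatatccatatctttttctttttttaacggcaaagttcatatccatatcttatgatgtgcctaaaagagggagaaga
ATTI2, chr2:18068175-18068424, plus strand: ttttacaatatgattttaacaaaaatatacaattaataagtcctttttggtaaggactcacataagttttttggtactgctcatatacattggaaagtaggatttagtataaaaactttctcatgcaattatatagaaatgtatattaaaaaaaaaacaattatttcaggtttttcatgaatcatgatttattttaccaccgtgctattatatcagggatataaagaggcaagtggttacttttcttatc
UPI, chr5:17508753-17509002, minus strand: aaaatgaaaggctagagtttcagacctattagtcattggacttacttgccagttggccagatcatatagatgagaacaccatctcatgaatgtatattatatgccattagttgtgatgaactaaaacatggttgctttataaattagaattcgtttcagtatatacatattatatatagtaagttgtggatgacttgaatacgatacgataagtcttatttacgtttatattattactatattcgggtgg
KTI2, chr1:6148928-6149177, plus strand: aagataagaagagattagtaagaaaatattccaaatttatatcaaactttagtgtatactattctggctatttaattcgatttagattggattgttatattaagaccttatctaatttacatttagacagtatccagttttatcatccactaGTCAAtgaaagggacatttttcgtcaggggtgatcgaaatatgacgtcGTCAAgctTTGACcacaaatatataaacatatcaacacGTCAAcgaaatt
ATTI1 held TTGAC starting 197 and 161 bases before its start and KTI2 98, 50, 42 and 12 bases before, while ATTI2 and UPI held none in this window. Over the 10 listed genes, 4 held TTGAC, against 44.93% of 27443 protein-coding genes with the same window. CACGTG was found before 1 of the 10 (AT1G72290) against 6.49%, AACGTG before 3 (KTI1, AT1G73325 and ATTI3) against 7.54%, and GCCGCC before 0 against 1.87%, all on both strands. CACGTG and AACGTG share the letters ACGTG. The annotated model of ATTI3 holds coding sequence only, so its window is not the 250 bases before transcription starts.

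The potato inhibitor I genes also split by time. UPI (AT5G43580), an unusual serine protease inhibitor known for a part in resistance to a fungus and to a caterpillar, lies on the minus strand at chr5:17507801-17508752 and had almost no reads outside the 24 h groups. Recovered reads were 141, 81, 140 and 140 with Pb OS at 24 h, 222, 242, 251 and 207 with Sl OS and 23, 18, 36 and 38 with W. At 3 h a single Pb OS library had 1 read and the other 10 treated libraries had 0, as had the 4 control libraries. The libraries of the 24 h groups did not overlap, with Sl OS highest, Pb OS next and W lowest. The 2 OS were not called apart in the main fit (limma adjusted p 0.82).

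Against a floor of 3 reads over the 4 control libraries, UPI was at least 149.8-fold higher with Pb OS, 265-fold higher with Sl OS and 33.7-fold higher with W at 24 h, from the summed reads scaled by depth. As control leaves were collected at 3 h only, treatment and sampling time cannot be told apart in these 24 h bounds. A change at 3 h could not be given, since both groups were at or under the floor. At 24 h UPI averaged 4.53 ± 1.13 CPM with Pb OS and 7.997 ± 0.54 CPM with Sl OS, against 1.04 ± 0.31 CPM with W (SD, n = 4 each). The log2 differences from W were 2.13 ± 0.19 (adjusted p 9.68e-06) and 2.99 ± 0.19 (adjusted p 3.03e-08) by limma. UPI was the only measured inhibitor called between OS and W at 24 h, where 0.037% of all genes were called higher after Pb OS and 0.238% after Sl OS, with 0.0212% and 0.153% called lower. In a fit of only the Sl OS and W libraries its adjusted p was 0.067.

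AT5G43570, another potato inhibitor I gene, is the next gene to UPI, on the opposite strand and 159 bases away. It had 23, 24, 33 and 28 reads with Pb OS at 24 h, 52, 36, 48 and 45 with Sl OS and 18, 15, 16 and 24 with W, against at most 1 read in control. Its log2 change against control was 4.55, 5.23 and 3.99 with limma adjusted p of 4.4e-06, 6.1e-07 and 2.3e-05. With so few control reads these sizes depend on the prior count and are no bounds. At 3 h its highest library had 5 reads. Among all other genes it had the highest correlation with UPI over the 27 libraries (Pearson r 0.966), ahead of ABCG37, an auxin-precursor transporter (0.957), and AT4G12500 (0.934). These are descriptions over libraries that share their treatments.

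**Figure D4:**
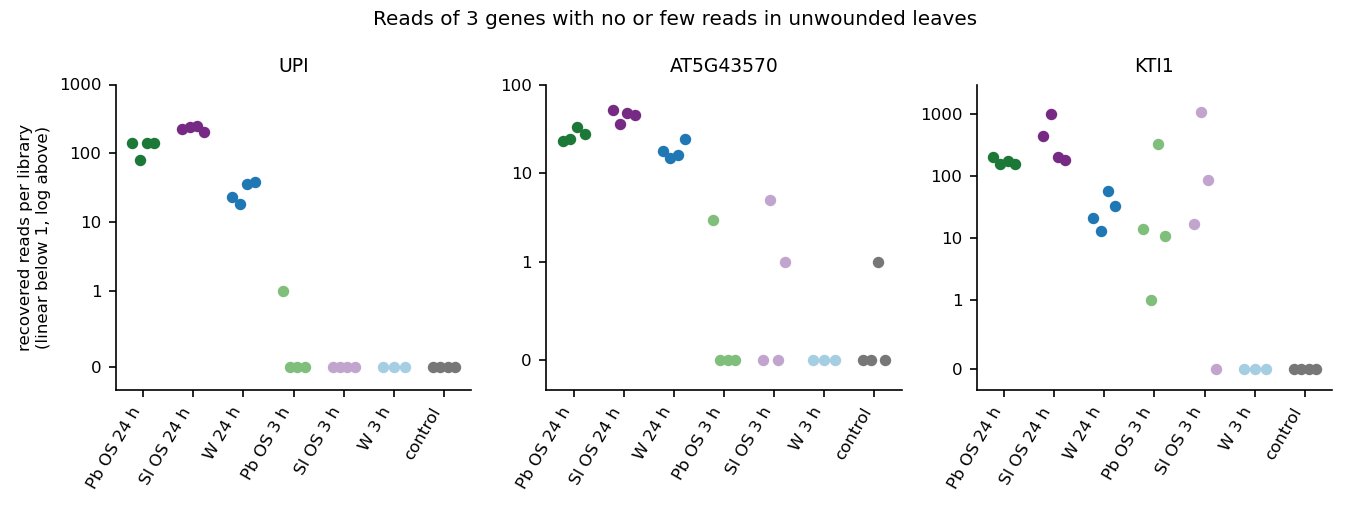
Recovered reads of UPI, its neighbour AT5G43570 and KTI1 in each library, on an axis that is linear below 1 and logarithmic above. UPI has 81 to 251 reads in the 24 h OS libraries and 0 reads in every control library, and KTI1 spans 0 to 1092 reads with Sl OS at 3 h.

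AT2G38870, the second potato inhibitor I member, was called in every treatment and was highest with Sl OS at 3 h. It lies on the minus strand at chr2:16236257-16237280. It had 33.8, 26.3, 25.7 and 32.3 CPM with Pb OS at 24 h, 43.1, 41.8, 23.2 and 27.4 CPM with Sl OS and 35.5, 37.1, 26.8 and 32.6 CPM with W. At 3 h it had 42.6, 57.1, 61.5 and 70.4 CPM with Pb OS, 125, 136, 120 and 214 CPM with Sl OS and 37.8, 27.03 and 35.3 CPM with W, against 5.68, 4.71, 8.39 and 7.33 CPM in control. The 24 h treatments overlapped each other, and at 3 h the order Sl OS, Pb OS, W was free of overlap. At 3 h the 2 OS were not called apart in the main fit (limma adjusted p 0.13). Against control the log2 change was 2.20, 2.36 and 2.36 with Pb OS, Sl OS and W at 24 h and 3.16, 4.51 and 2.43 at 3 h, each ± 0.23 to 0.25, with limma adjusted p of at most 6.46e-06. With Sl OS at 3 h it exceeded W by 2.08 ± 0.25 (adjusted p 3.44e-05), and with Pb OS by 0.73 ± 0.25 (adjusted p 0.040). The Pb OS call was lost on leaving out W replicate 1, 2 or 3 or Pb OS replicate 2, 3 or 4, with values of 0.58 to 0.82 and limma adjusted p of up to 0.18.

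Among the Kunitz genes, KTI1 (AT1G73260), a Kunitz trypsin inhibitor known to act on cell death, varied most between replicates. It lies on the minus strand at chr1:27547098-27548282 and had 0 reads in all 4 control and all 3 W libraries at 3 h. It had 207, 157, 173 and 158 reads with Pb OS at 24 h, 448, 997, 204 and 185 with Sl OS and 21, 13, 58 and 33 with W. At 3 h it had 14, 1, 329 and 11 reads with Pb OS and 17, 1092, 88 and 0 with Sl OS. Each OS group at 3 h thus held a library far above the others, while at 24 h every OS library was above every W library.

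Against the same floor over the control libraries, KTI1 was at least 207-fold higher with Pb OS, 528-fold with Sl OS and 36.6-fold with W at 24 h, and 98.3-fold and 308-fold with Pb OS and Sl OS at 3 h. The 3 h bounds rest on 1 library each: they were 9.71-fold without Pb OS replicate 3 and 36.9-fold without Sl OS replicate 2, and the Sl OS bound at 24 h was 313-fold without replicate 2. Fitted log2 changes of KTI1 against groups with 0 reads depend on the prior count and are no bounds. By limma it was called with both OS at 24 h (adjusted p 0.0038 and 0.00087) and at 3 h (0.018 and 0.0048) and missed the call with W at 24 h (0.083). The Pb OS call at 3 h was lost without Pb OS replicate 3 (log2 change 2.84 in place of 4.14, adjusted p 0.099) and without control replicate 3 (3.84, adjusted p 0.052). Leaving out the library with 1 read, Pb OS replicate 2, gave 5.51, and for Sl OS at 3 h the value was 3.33 without replicate 2 and 6.60 without replicate 4, against 5.03 with all libraries. For Sl OS at 24 h it was 9.18 without replicate 3, against 8.49. With voom on the recovered reads none of the 4 calls passed, at adjusted p of 0.068 to 0.24. The genes closest to KTI1 over the 27 libraries were NIT2, a nitrilase (Pearson r 0.882), DXPS1 (0.856) and CYP71A12, an enzyme of camalexin synthesis (0.855).

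KTI2 (AT1G17860), a further Kunitz gene, rose with OS and not, by the call, with wounding alone. It had 15.1, 15.4, 20.4 and 20.7 CPM with Pb OS at 24 h, 14.2, 21.0, 18.3 and 16.6 CPM with Sl OS and 14.4, 14.0, 10.6 and 10.6 CPM with W. At 3 h it had 19.3, 20.4, 39.4 and 27.4 CPM with Pb OS, 45.3, 93.5, 35.3 and 47.2 CPM with Sl OS and 8.18, 11.1 and 9.34 CPM with W, against 7.87, 4.85, 6.01 and 7.57 CPM in control. Every treated library was above every control library. The log2 change against control was 1.46 ± 0.27 with Pb OS (adjusted p 0.0034) and 1.42 ± 0.27 with Sl OS (0.0031) at 24 h, and 1.98 ± 0.27 (8.65e-06) and 3.00 ± 0.27 (6.69e-08) at 3 h by limma. With W it was 0.93 ± 0.27 at 24 h (adjusted p 0.084) and 0.56 ± 0.29 at 3 h (adjusted p 0.38). KTI2 spans chr1:6149178-6150038 on the plus strand, where the reference annotates AT1G05347 over 734 of its bases and the end of AT1G17870 over 100 bases, both on the minus strand. How the counting used strand is not given in the sources used here, so reads of the antisense genes cannot be told apart from its own.

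AT1G73325 and DR4 lie 432 bases apart on the minus strand of chromosome 1, at chr1:27567419-27568281 and chr1:27568714-27569823. AT1G73325, a Kunitz gene, was highest with wounding alone at 3 h. It had 5.75, 11.03, 2.41 and 2.06 CPM with Pb OS at 24 h, 6.57, 11.8, 3.98 and 2.84 CPM with Sl OS and 1.80, 2.75, 0.614 and 0.782 CPM with W. At 3 h it had 4.63, 7.93, 5.29 and 3.52 CPM with Pb OS, 8.91, 1.25, 6.08 and 9.48 CPM with Sl OS and 16.4, 21.0 and 18.4 CPM with W, against 0.0427, 0.562, 0.666 and 1.70 CPM in control. All W libraries at 3 h were above all OS libraries of that hour. The OS-to-W differences at 3 h were -1.85 ± 0.97 (Pb OS, adjusted p 0.17) and -1.87 ± 0.97 (Sl OS, adjusted p 0.15) by limma, and with voom on recovered reads -1.98 and -2.14, which passed at 0.033 and 0.018.

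Against control AT1G73325 was called with W at 3 h (log2 change 5.50 ± 0.97, adjusted p 0.0013), with both OS at 3 h (3.66 and 3.63, adjusted p 0.0021 and 0.0020) and with Sl OS at 24 h (3.74 ± 0.89, adjusted p 0.019) by limma. The Sl OS call at 24 h was lost without control replicate 1 (2.56), Sl OS replicate 1 (3.56) or Sl OS replicate 2 (3.47), at limma adjusted p of 0.072 to 0.087. Control replicate 1 was its only library with 0 reads, and without it the 3 h values were 2.47 with Pb OS, 2.45 with Sl OS and 4.25 with W, while without control replicate 4 they were 4.49, 4.47 and 6.20, all still called. The Sl OS value at 3 h was 4.58 without Sl OS replicate 2, and that at 24 h was 4.58 without control replicate 4. The Pb OS value at 24 h missed the call at 3.38 (limma adjusted p 0.053), with 0.031 without the replicate block and 0.012 without control replicate 4.

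DR4 (AT1G73330), named as a drought-repressed transcript, had few reads in control and in the 3 h OS groups and up to 448 elsewhere. It had 26, 25, 13 and 36 reads with Pb OS at 24 h, 2, 6, 169 and 15 with Sl OS and 29, 4, 448 and 98 with W. At 3 h it had 0, 0, 4 and 1 reads with Pb OS, 4, 0, 2 and 0 with Sl OS and 20, 25 and 9 with W, against 0, 0, 0 and 18 in control. The W libraries at 3 h had more recovered reads than any OS library of that hour. In corrected CPM they overlapped, with 0.263 CPM in Sl OS replicate 1 and 0.206 CPM in W replicate 3. Reads are values before the correction, where libraries of replicates 3 and 4 held 2.99 times as much DR4 as those of replicates 1 and 2. The OS-to-W differences at 3 h were -3.06 (Pb OS) and -2.94 (Sl OS) with limma adjusted p of 0.063 and 0.062, and 0.039 each without the replicate block. Without Sl OS replicate 1 the Sl OS difference was -3.62 (adjusted p 0.034). Against control DR4 was called only with W at 24 h (log2 change 4.60 ± 1.07, adjusted p 0.027), and that call was lost without control replicate 1, 2 or 3 or W replicate 1, 3 or 4, with values of 3.79 to 4.67 and adjusted p of 0.068 to 0.11. It was 5.64 without control replicate 4, the only control library with reads, and 5.44 without W replicate 2. Without control replicate 4, Pb OS and Sl OS at 24 h passed too, at 4.61 and 3.89 (limma adjusted p 0.025 and 0.045). With so few reads the fitted sizes of DR4 depend on the prior count. Over the 10 alternatives the value of W at 24 h against control ran from 0.56 to 5.63. The OS-to-W differences at 3 h ran from -3.41 to -0.14 (Pb OS) and from -3.55 to -0.13 (Sl OS).

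OS were next set against wounding alone, since both groups carry the same holes. At 3 h, 5 of the 9 measured genes were called higher with Pb OS (10.6% of all genes) and 5 with Sl OS (13.9%), and none lower (14.2% and 18.1%). They were the same genes, KTI1, KTI2, ATTI1, ATTI2 and AT2G38870, and both comparisons share the W libraries. Leaving out any 1 library of the comparison gave 3 to 4 calls with Pb OS and 4 to 6 with Sl OS. The KTI1 call with Pb OS was also lost with W at 3 h numbered 1, 3 and 4, as the study plots it. The log2 differences were 4.33, 1.42, 2.20, 2.52 and 0.73 with Pb OS, and 5.22, 2.44, 2.41, 2.56 and 2.08 with Sl OS. Those of KTI1 depend on the prior count, as W had 0 reads, and from the 3-read floor KTI1 was at least 83.3-fold higher with Pb OS and 261-fold with Sl OS, or 8.23-fold without Pb OS replicate 3 and 31.3-fold without Sl OS replicate 2. Without W replicate 1 the bounds were 54.6-fold and 171-fold. ATTI3 differed from W by 0.56 (Pb OS, adjusted p 0.21) and 0.52 (Sl OS, adjusted p 0.23) by limma. In a fit of only the Pb OS and W libraries at 3 h, 0 of the 9 passed. The KTI1 call with Pb OS was lost without W replicate 1, 2 or 3 or Pb OS replicate 1, 3 or 4, lowest without Pb OS replicate 3 (2.96, limma adjusted p 0.19), and under a block of the 2 batches (4.11, adjusted p 0.054). It was 5.78 without Pb OS replicate 2. With Sl OS it was lost without W replicate 3 (4.88, adjusted p 0.056 by limma) or Sl OS replicate 2 (3.43, adjusted p 0.066), and was 6.53 without Sl OS replicate 4.

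**Figure D5:**
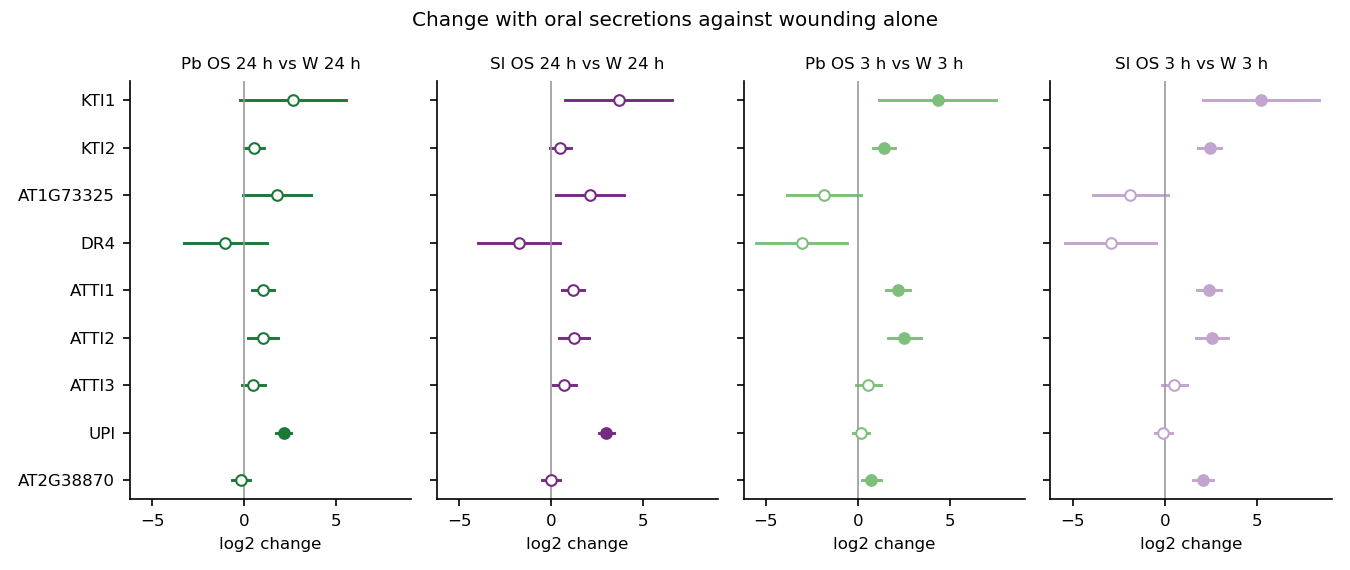
Log2 difference of each inhibitor gene between OS and wounding alone at 24 h and 3 h, with 95% confidence intervals before adjustment, filled where the call was passed. UPI is the only filled gene at 24 h (2.13 with Pb OS, 2.99 with Sl OS), and KTI1, KTI2, ATTI1, ATTI2 and AT2G38870 are filled at 3 h.

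At 24 h ATTI1 exceeded W by 0.99 ± 0.29 with Pb OS (adjusted p 0.50) and 1.19 ± 0.29 with Sl OS (adjusted p 0.089) by limma. Without the replicate block the Sl OS value passed at 0.042. KTI1 exceeded W at 24 h by 2.65 (Pb OS) and 3.66 (Sl OS), with adjusted p of 1 and 0.54, and the libraries did not overlap. The share of all genes without overlap was not counted.

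Whether the OS-to-W difference itself changed between the times was tested as an interaction. For UPI this is no test of a change, since both 3 h groups were at or under the floor. With Sl OS it was smaller at 24 h for KTI2 (-1.94 ± 0.39, adjusted p 0.0064) and AT2G38870 (-2.08 ± 0.34, adjusted p 0.0031), and larger for AT1G73325 (4.00 ± 1.31, adjusted p 0.049) by limma. The AT1G73325 call was lost on leaving out any of 13 of the 15 libraries involved, with values of 3.00 to 4.42 and limma adjusted p of up to 0.12, and held without Sl OS replicate 1 or 4 at 3 h. Of all genes, 3.31% and 2.31% were called with a larger and a smaller difference with Pb OS, and 8.39% and 5.6% with Sl OS. Without Pb OS replicate 2 at 3 h, ATTI1 and ATTI2 passed with Pb OS, at -1.44 and -1.81 (limma adjusted p 0.021 and 0.029), against -1.20 (0.095) and -1.48 (0.12) with all libraries.

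The 2 OS were then compared with each other. No measured inhibitor was called between Pb OS and Sl OS at 24 h or 3 h, and neither was any other gene in the table, by limma or by voom (0%). On log2(CPM + 5), UPI at 24 h (-0.45, limma adjusted p 0.017) and AT2G38870 at 3 h (-1.27, adjusted p 0.019) passed. At an unadjusted p under 0.05, 1 of the 9 stood apart at 24 h and 2 at 3 h, with 3.66% and 4.14% of all genes. At 24 h it was UPI, 4.53 CPM with Pb OS and 7.997 CPM with Sl OS, a log2 difference of -0.86 (95% interval -1.26 to -0.46) by limma. At 3 h they were AT2G38870, 57.9 CPM with Pb OS and 149 CPM with Sl OS (-1.34, -1.83 to -0.86), and KTI2, 26.6 and 55.3 CPM (-1.01, -1.57 to -0.46). For ATTI1 the intervals were -0.79 to 0.41 at 24 h and -0.82 to 0.38 at 3 h, and for ATTI2 -0.99 to 0.63 and -0.85 to 0.77. KTI1 was the least precise, with intervals of -3.91 to 1.88 and -3.79 to 2.00.

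Between 24 h and 3 h, 2 measured genes were called higher and 3 lower with Pb OS, 3 higher and 4 lower with Sl OS, and 1 higher and 3 lower with W. The background was 23.2% and 22.5% of all genes with Pb OS, 25.1% and 23.9% with Sl OS, and 1.32% and 2.96% with W. Without unwounded leaves at 24 h, a late effect of treatment and sampling time alone cannot be told apart here. UPI was higher at 24 h in each treatment, by at least 344-fold with Sl OS and 28.6-fold with W from the same floor (18.7-fold without W replicate 1 at 3 h), and by a ratio of 541 with Pb OS (95% exact interval 96.6 to 21398) from 502 reads to 1. ATTI2 and ATTI3 were lower in each treatment, ATTI3 by -1.92, -1.66 and -1.85 with Pb OS, Sl OS and W. AT2G38870 was lower with Pb OS (-0.96, adjusted p 0.0024) and Sl OS (-2.14, adjusted p 1.1e-06) and differed by -0.07 with W (adjusted p 0.94) by limma. KTI2 was lower with Sl OS (-1.57, adjusted p 9.89e-05) and AT1G73325 with W (-3.89, adjusted p 0.025). The AT1G73325 call was lost without W replicate 1, 2 or 3 at 3 h or W replicate 3 or 4 at 24 h, with values of -4.02 to -3.54. DR4 was higher at 24 h with Pb OS (3.86, adjusted p 0.0067) and Sl OS (3.02, adjusted p 0.026), and KTI1 with Sl OS (3.46, adjusted p 0.045) by limma. The Sl OS call of KTI1 was lost without replicate 1, 3 or 4 at 3 h or 1, 2 or 4 at 24 h (1.89 to 3.67), and was 5.16 without replicate 2 at 3 h and 4.15 without replicate 3 at 24 h. That of DR4 was lost without replicate 3 or 4 at 3 h or 2 or 3 at 24 h (2.06 to 3.01), and was 3.66 without replicate 1 at 3 h and 3.75 without replicate 1 at 24 h. The Pb OS value of DR4 was 4.53 without Pb OS replicate 3 at 24 h. As DR4 had few reads at 3 h, these sizes depend on the prior count. The 10 alternatives gave 0.26 to 3.99 with Pb OS and 0.21 to 4.15 with Sl OS for DR4. KTI1 missed the call with Pb OS (3.34, adjusted p 0.055) and passed without Pb OS replicate 3 at 3 h (4.64, adjusted p 0.012).

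Per kilobase of annotated exon, ATTI3 was the most abundant member in every group, at 169 CPM per kb in control and 901 and 905 with Pb OS and Sl OS at 3 h, although its coding-only model raises these values. In CPM, not divided by length, ATTI1 was above ATTI3 at 24 h with Pb OS (72.0 and 59.2) and Sl OS (82.8 and 71.2). Next at 3 h with Sl OS came AT2G38870 (203 CPM per kb) and ATTI1 (135), then KTI2 (75.0) and ATTI2 (60.5). At 24 h with Sl OS, ATTI1 (109) stood above AT2G38870 (46.3), KTI2 (23.7), KTI1 (12.7) and UPI (11.7). In control AT2G38870 and KTI2 were alike, at 8.92 and 8.91 CPM per kb.

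Other genes of the inhibitor families were then counted. Of 14 measured, 1, AT5G43570, was called higher in each 24 h treatment, where 1.58%, 2.26% and 1.39% of all genes were with Pb OS, Sl OS and W. At 3 h the counts were 3, 3 and 0, where 13.4%, 14.5% and 3.5% of all genes were. Their median log2 change was 0.27, 0.41 and 0.25 with Pb OS, Sl OS and W at 3 h. CYS4, a cystatin, which inhibits cysteine proteases, averaged 49.6 ± 7.4 CPM with Pb OS and 50.6 ± 6.2 CPM with Sl OS at 3 h, against 14.4 ± 4.1 CPM in control, and also exceeded W (25.7 ± 4.1 CPM). The serpin CCP3 (AT2G25240) averaged 1.66 ± 0.51 and 2.03 ± 0.68 CPM with the 2 OS, against 0.524 ± 0.21 CPM in control, and the Kazal-type AT4G01575 1.32 ± 0.44 and 0.884 ± 0.39, against 0.189 ± 0.12 CPM. AT4G01575 is overlapped over all its 740 bases by AT4G03895 on the other strand.

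Transcripts of jasmonate output genes were set beside the inhibitors, and no hormone was measured. Of 8 genes, 3, 4 and 1 were called higher with Pb OS, Sl OS and W at 24 h and 6, 7 and 6 at 3 h, where the shares of all genes were those given above. VSP1, a vegetative storage protein, averaged 7.44 ± 4.93 CPM with Pb OS at 24 h, against 499 ± 410 CPM at 3 h, and 5.24 ± 4.42 CPM in control. Its log2 change against control at 24 h was 0.64, -1.32 and -2.43 with Pb OS, Sl OS and W, none past the call. PDF1.2A, a defensin of the jasmonate and ethylene branch, averaged 44.99 ± 27.03 CPM with Pb OS and 122 ± 116 CPM with Sl OS at 24 h, against 3.49 ± 2.04 CPM with W and 1.49 ± 1.65 CPM in control. Of 7 papain-type proteases, a class that some Kunitz inhibitors and cystatins bind, RD21A was the only one called at 3 h, at 995 ± 64.7 and 1034 ± 135 CPM with Pb OS and Sl OS, against 508 ± 125 CPM in control, where 13.4% and 14.5% of all genes were called higher. At 24 h only XCP1 was called, with Sl OS (log2 change 1.91, limma adjusted p 0.010), where 2.26% of all genes were called higher. The genes closest to ATTI1 over the 27 libraries were PSK5, a phytosulfokine precursor (Pearson r 0.972), TRX8, a thioredoxin (0.968), and AZI1, a lipid transfer protein of systemic priming (0.949).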

How the data were processed

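The authors trimmed 150 bp reads with Cutadapt 2.5, aligned them to TAIR10 with STAR 2.5.3a and counted per gene with HTSeq 0.9.1 (the submitters' processing notes). After a filter on low counts (at least 1 sample with 1 CPM), the authors applied TMM scaling in edgeR, a log2 CPM transformation with prior count 1, and a correction for batch. The deposited table of log2 CPM, 18899 genes in 27 samples, was used. A second deposited table holds the authors' own log2 fold changes and adjusted p-values against control, and was not used.

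Whole reads were recovered from the table by 1 shift per gene between 2 batches (replicates 1 and 2, and 3 and 4, with W at 3 h numbered 1, 3 and 4 as the study plots it) for 100.0% of the genes, within 0.02 reads. Libraries held 22.48 to 31.34 M such reads (median 29.27 M). As the table holds normalized values, voom on recovered reads was an alternative only.

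limma 3.58.1 in R 4.3.3 was fitted to the table's log2 CPM for the 27 samples, with 7 group means and the labels' replicate number as a block of 4, as the study describes, and p was adjusted over all 18899 genes in each of 17 contrasts. The labels number W at 3 h 1 to 3, and other numberings were among the 10 alternatives, with 27 fits leaving out a library. The study ties the number to a plant batch. After group means were removed, libraries of the same number correlated at a mean of -0.10 to -0.01 and of different numbers at 0.02. The values were already corrected between the 2 batches, so these correlations cannot show a difference of that kind. Within each of the 2 batches, all 63 calls of members in 15 contrasts kept their direction. The calls came from these same libraries, so this is a description and no separate test. The fit and the recovery were tested on simulated data. The simulated counts for the fit had the same dispersion in all genes and no batch effect. That test thus does not cover genes as variable between replicates as KTI1. Counting floors (3 reads) and intervals cover counting error only.

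The members and gene lists were chosen with earlier results of these data known. The text names every member, at most 6 other inhibitors past the call in a contrast, and the 3 genes of highest r with each of the 3 members of widest range. RefSeq TAIR10.1 coordinates were used, whose nuclear chromosomes have the sequence of TAIR10, and the files hold none. Protein sequences were not used here. Python 3.11.15 with scipy 1.17.1, numpy 2.4.6 and pandas 2.3.3 was used for the rest. Lower bounds with each library left out in turn were added after seeing the data.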

Additional observations from a re-analysis of the deposited data

Results flagged for a closer look

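The OS-to-W difference changed between 24 h and 3 h, by limma's interaction test, for 3 inhibitor genes, with Sl OS in each. The log2 difference of differences was -1.94 for KTI2 and -2.08 for AT2G38870, whose excess over W was present at 3 h and not called at 24 h. It was 4.00 for AT1G73325, whose mean stood below W at 3 h and above W at 24 h. Neither of these differences was called (limma adjusted p 0.15 and 0.67), and the interaction (adjusted p 0.049) held in 2 of the 15 fits leaving out a library.

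The 54 sets of 4 replicates were checked for a library apart from the others. Chance gives about 1 in 20 for normally distributed values, and whether that rate holds on the CPM scale was not tested. On the log2 scale 0 stood apart, and on the CPM scale, added after seeing the data, 8 did, each above the rest of its group. KTI1 had 12.8 CPM in Pb OS replicate 3 and 26.2 CPM in Sl OS replicate 2 at 3 h, against at most 0.467 and 3.43 CPM in the others. DR4 had 3.05 CPM in Sl OS replicate 3 at 24 h, 0.263 CPM in Sl OS replicate 1 at 3 h (4 reads) and 0.402 CPM in control replicate 4. ATTI2 had 2.67 CPM in Pb OS replicate 1 at 24 h, UPI 0.0614 CPM in Pb OS replicate 1 at 3 h (1 read) and AT2G38870 214 CPM in Sl OS replicate 4 at 3 h.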

How the results depend on the processing

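No member's log2 change reversed its direction among the 88 gene results (1 gene in 1 contrast) under any of the 10 alternatives or the fits leaving out a library. These 88 were called in the main fit or in any other fit, so an unchanged outcome can be a call or no call. On log2(CPM + 5) 60 outcomes were unchanged, 17 calls were lost and 11 gained. With only the groups of the contrast the counts were 60, 23 and 5, and with voom on recovered reads 71, 13 and 4. Without the replicate block 82 outcomes were unchanged, 0 calls were lost and 6 gained. The gains are given beside their results except that of ATTI1 in the Sl OS interaction (-1.25, limma adjusted p 0.034, against -1.23 and 0.060). The block of 2 batches gave 82, 1 and 5, the eBayes trend 85, 0 and 3, and both together, chosen after seeing the data, 82, 0 and 6. The other numberings of W at 3 h gave 86, 1 and 1 (1, 3, 4) and 87, 1 and 0 (1, 4, 3), each ending the KTI1 call of Pb OS against W at 3 h (4.01, adjusted p 0.063 and 0.064). The filter at a group mean of 1 CPM left all 88 outcomes unchanged.

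Counts of members called changed by over 1.5 times as follows. Against control at 24 h, log2(CPM + 5) gave 2 with Pb OS, 4 with Sl OS and 2 with W (5, 7 and 4 in the report), voom 4 with Sl OS, and fits of only the groups compared 3 with Pb OS and 3 with Sl OS. Against W, those fits gave 0 with Pb OS at 3 h and 0 with Sl OS at 24 h, where no replicate block, log2(CPM + 5), voom and 2 batches with trend each gave 2. Between Pb OS and Sl OS, log2(CPM + 5) gave 1 at each time. Between 24 h and 3 h of W, only the groups compared gave 0. In the Pb OS interaction (1, UPI, whose 3 h groups were at the floor), log2(CPM + 5) gave 4, voom 0 and only the groups compared 2. Leaving out a library gave 3 to 4 calls for Pb OS against W at 3 h and 1 to 3 in the Pb OS interaction. Depth limits KTI1, UPI and DR4 most, where a control library with 0 reads of 22.48 to 30.54 M leaves levels under 3 reads unseen.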
